A study of Mus musculus with 26 samples.

Results

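A total of 1559 genomic bins of 1 kb carried more H3K4me2 in lineage-negative bone marrow of GFI1-KD mice than in that of GFI1-WT mice. They were chosen by their reads: 40 or more summed over both libraries, and a ratio of 3 or more between the libraries after 1 RPM was added to each, where RPM are reads scaled to 1000000 kept reads per library. The rule was applied to mouse autosomes in the mm10 build, and 85284 bins had enough reads to be chosen, so the gained bins were 1.83% of them. A ratio of 1/3 or less was met by 2870 bins, 3.37% of the same 85284, and these are called lost bins below. A read fell in 1604585 autosomal bins in all. Because the reads chose the bins, their read numbers are a description and were not tested.

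Each H3K4me2 library came from lineage-negative cells of untreated C57BL/6 mice, isolated from bone marrow on magnetic columns, and there was 1 library per genotype. The second library carries the name GFI-KD in its title. How GFI1 was lowered, and how many animals were pooled, was not given in the sources used here. RNA was sequenced from cultured myeloid progenitors of a C57BL/6 background that MN1 or the pair of Hoxa9 and Meis1 (H9M) had transformed. Each was compared as control (CTL) or LSD1 knockout (KO) without all-trans retinoic acid (ATRA), 3 libraries per group. A further 12 libraries of cells given ATRA entered the filter on low counts, the scaling and the fit, but no comparison. Knockout was induced with 4-hydroxytamoxifen at 0.1 µM for 72 h, and the labels do not say whether control cells received it. The strain field is the same for controls and knockouts, a CreERT2-negative line with a targeted LSD1 allele. Nothing states that replicate libraries were separate cultures, so the p-values measure only the spread between these libraries.

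GFI1 is a zinc finger repressor of myeloid and stem cells. It binds DNA itself and brings the demethylase LSD1, encoded by Kdm1a, which removes methyl groups from lysine 4 of histone H3. H3K4me2, the dimethylated form, marks active and primed promoters and enhancers. PU.1, encoded by Spi1, activates genes of monocytes and granulocytes, many of which GFI1 is known to oppose. The study asked how LSD1 inhibition affects the repression of PU.1 target genes by GFI1.

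The promoters shown here are those of listed myeloid genes with an annotated start inside a gained bin, 6 of 41 such promoters of protein-coding genes. Only the start had to lie in the bin. The Fcgr1 window reaches past its gained bin, which ends at 96294000, and the S100a8 window begins before its bin, which begins at 90669001. Each runs 5′ to 3′ for 280 bases, from 250 before the start to 30 after it, on the gene's own strand (RefSeq, GRCm38.p6). Capitals mark matches, on either strand, to the letters AATCNNNGC (the core bound by GFI1), GAGGAA (PU.1) or TTGCNNAA (C/EBP).
Mmp8, chr9:7558179-7558458, plus strand: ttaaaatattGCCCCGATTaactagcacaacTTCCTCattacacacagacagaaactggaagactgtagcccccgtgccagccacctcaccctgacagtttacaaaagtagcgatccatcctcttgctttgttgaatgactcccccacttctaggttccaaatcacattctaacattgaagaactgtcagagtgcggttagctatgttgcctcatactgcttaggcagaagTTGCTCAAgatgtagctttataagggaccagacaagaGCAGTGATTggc
Fcgr1, chr3:96293940-96294219, minus strand: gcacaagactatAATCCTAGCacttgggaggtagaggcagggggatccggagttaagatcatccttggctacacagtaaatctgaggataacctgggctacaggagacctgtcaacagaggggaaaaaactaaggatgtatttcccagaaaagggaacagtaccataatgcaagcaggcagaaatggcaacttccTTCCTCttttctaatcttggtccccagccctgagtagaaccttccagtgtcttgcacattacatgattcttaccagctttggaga
S100a8, chr3:90668821-90669100, plus strand: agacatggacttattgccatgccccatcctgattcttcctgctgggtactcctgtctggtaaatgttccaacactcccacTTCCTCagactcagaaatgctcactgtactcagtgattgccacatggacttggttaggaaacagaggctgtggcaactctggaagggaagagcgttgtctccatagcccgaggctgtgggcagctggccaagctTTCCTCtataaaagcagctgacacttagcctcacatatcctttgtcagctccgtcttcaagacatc
Elane, chr10:79886062-79886341, plus strand: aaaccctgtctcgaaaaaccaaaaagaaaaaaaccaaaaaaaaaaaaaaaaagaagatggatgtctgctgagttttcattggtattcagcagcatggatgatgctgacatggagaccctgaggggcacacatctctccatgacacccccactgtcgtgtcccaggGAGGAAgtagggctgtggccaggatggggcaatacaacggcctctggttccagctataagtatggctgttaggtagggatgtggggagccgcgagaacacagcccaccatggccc
Tlr9, chr9:106222348-106222627, plus strand: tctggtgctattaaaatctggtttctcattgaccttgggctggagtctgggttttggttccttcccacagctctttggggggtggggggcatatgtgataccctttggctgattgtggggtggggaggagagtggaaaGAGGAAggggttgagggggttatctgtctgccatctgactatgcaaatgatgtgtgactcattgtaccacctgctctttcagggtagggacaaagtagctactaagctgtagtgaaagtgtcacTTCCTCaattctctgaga
Irf8, chr8:120738389-120738668, plus strand, an internal start: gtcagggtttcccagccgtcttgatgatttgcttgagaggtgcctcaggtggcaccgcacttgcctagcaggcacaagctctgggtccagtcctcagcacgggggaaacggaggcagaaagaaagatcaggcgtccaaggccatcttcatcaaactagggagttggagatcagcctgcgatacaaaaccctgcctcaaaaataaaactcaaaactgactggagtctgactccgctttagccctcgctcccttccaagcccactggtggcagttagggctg

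Mmp8, the neutrophil collagenase, held 2 matches to the GFI1 letters, at -240 and 19 from the start, with 1 match each for PU.1 and C/EBP. Fcgr1, the high-affinity IgG receptor, held 1 GFI1 match and 1 PU.1 match, both upstream of its gained bin and outside it. S100a8, a calcium-binding subunit of calprotectin, and Tlr9, the sensor of unmethylated DNA, each held 2 PU.1 matches, and Elane, neutrophil elastase, held 1. The S100a8 match at -170 from the start lay outside its gained bin. No match was found in the window at the internal start of Irf8, the interferon regulatory factor of monocytes and dendritic cells.

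Over the 41 promoters, in windows of 300 bases, GAGGAA was present in 19 (46.3%), against 27.2% of all 20085 protein-coding promoters searched. AATCNNNGC was present in 6 of the 41 (14.6%) and in 10.7% of all. The AP-1 letters TGANTCA were present in 9 (22.0% against 7.06%), the RUNX letters TGTGGT in 11 (26.8% against 14.8%) and the C/EBP letters in 7 (17.1% against 10.3%). The GATA letters AGATAA were present in 2 (4.88% against 9.57%). Both strands were searched, matches of different motifs could overlap, and each was counted separately. The 41 windows belong to 39 genes, since Gpr35 and Pram1 gave 2 each, and those of Pram1 overlap. Shares over 41 windows describe these windows only, and part of a window can lie outside the gained bin.

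The libraries were of similar depth, with 8949072 reads kept in GFI1-WT and 9538627 in GFI1-KD, so that 1 read was worth 0.112 RPM and 0.105 RPM. Every kept read had a position and strand of its own. Reads on the Y chromosome numbered 1530 in GFI1-WT and 98 in GFI1-KD, and 1.91% and 2.06% of reads lay on the X chromosome. The genotype and the sex of the animals cannot be told apart in these libraries. Over all 85284 bins the median ratio of GFI1-KD to GFI1-WT was 1.11, and 62.8% of GFI1-WT reads against 68.5% of GFI1-KD reads fell in them. In lineage-negative marrow, more cells of a type and more mark per cell cannot be told apart.

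The gained bins had low levels in GFI1-WT. They held 19646 GFI1-WT reads (0.220% of the library) and 111548 GFI1-KD reads (1.17%). GFI1-WT reads per bin ran from 0 to 74 with a median of 10, and GFI1-KD reads from 36 to 263 with a median of 64. All bins with 40 or more reads had medians of 44 and 56 reads. The levels of the gained bins follow in part from the rule, which needs few GFI1-WT reads beside the GFI1-KD reads, so these medians describe the choice. Of the 1559 bins, 4 had no GFI1-WT read, 299 had 5 or fewer and 242 had more than 20. The ratio, with 1 RPM added, ran from 3.00 to 8.68 with a median of 3.41. It was under 4 in 1265 bins, between 4 and 5 in 230 and 5 or more in 64.

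The threshold cut through a continuous range of values. Just inside it, 230 bins had a ratio of 3.0 to 3.1, with medians of 13 GFI1-WT and 61.5 GFI1-KD reads. Just outside, 324 bins had a ratio of 2.9 to 3.0, with medians of 12 and 56 reads. At the lower limit of depth, 113 gained bins had 40 to 43 summed reads, and 144 further bins had 36 to 39 reads at a ratio of 3 or more.

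**Figure D1:**
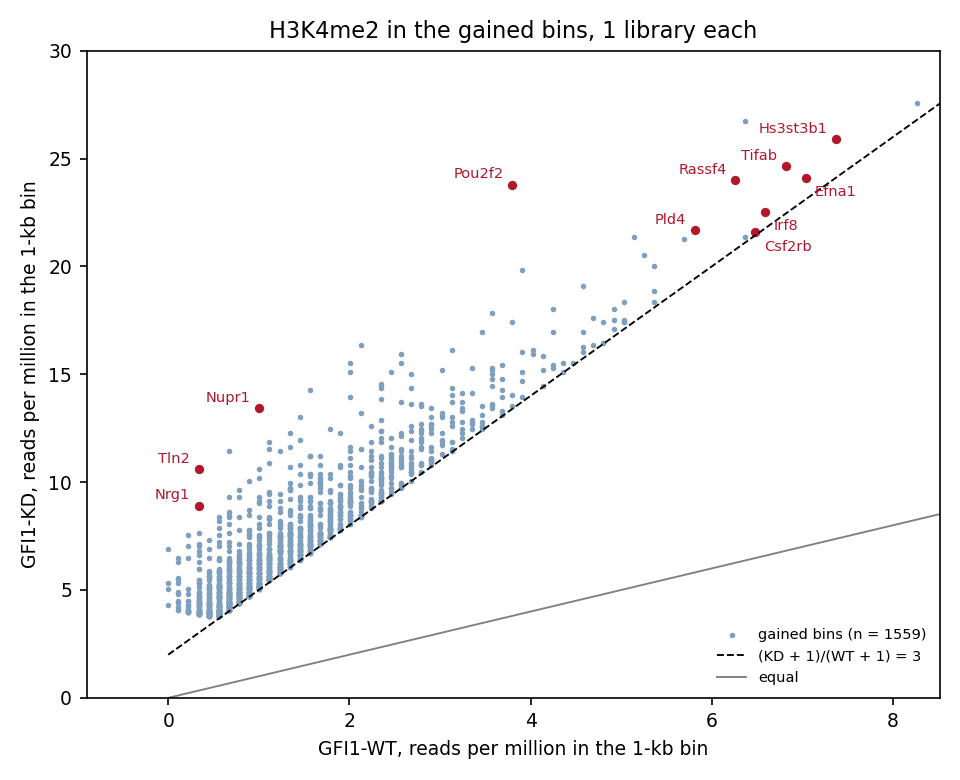
H3K4me2 in RPM of each of the 1559 gained bins in GFI1-WT (x axis) and GFI1-KD (y axis), 1 point per bin and 1 library per genotype; the dashed line is the ratio of 3 that chose the bins, the solid line marks equal values, and red points are named bins that overlap a gene. Most points lie in the lower left, with GFI1-WT values from 0 to 8.27 RPM and GFI1-KD values from 3.77 to 27.6 RPM.

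The highest ratio lay inside Tln2, which encodes talin 2, a link between integrins and actin. This bin, chr9:67484001-67485000, had 3 reads in GFI1-WT and 101 in GFI1-KD. With exact 95% Poisson intervals these are 0.619 to 8.77 and 82.3 to 123 reads. Intervals here cover counting error only. The next gained bin of Tln2 had 6 against 82 reads.

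A bin between genes, chr7:63802001-63803000, had no GFI1-WT read, with an exact Poisson upper limit of 3.69 reads, and 66 GFI1-KD reads. A bin beside Mcf2l and 4533 bases from the start of F7, the coagulation factor VII gene, had 6 against 109 reads. One centred 969 bases from the start of Nupr1, a stress-induced nuclear protein, had 9 against 128 reads. A bin 6865 bases from the start of Socs3, an inhibitor of cytokine signalling, had 2 against 72 reads.

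The 10 gained bins with the most GFI1-KD signal had 206 to 263 GFI1-KD reads. A pair of touching bins 24027 and 25027 bases from the start of Irf1, an interferon regulatory factor, had 74 against 263 and 57 against 255 reads and overlapped no protein-coding gene. Hs3st3b1, a heparan sulfate sulfotransferase, held a bin of 66 against 247 reads. Efna1, the ligand ephrin A1, held one of 63 against 230. A bin in Pou2f2, the transcription factor OCT2, had 34 against 227 reads, a ratio of 5.17. Tifab, a regulator of innate signalling, held a bin of 61 against 235 reads. Pld4, an endolysosomal nuclease, held a bin of 52 against 207, and Csf2rb, a signalling chain of the GM-CSF receptor, one of 58 against 206. The other two lay in Rassf4 (56 against 229 reads) and Irf8 (59 against 215).

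The surroundings of the gained bins are described as averages. Averaged over the gained bins, GFI1-KD held 7.50 RPM in the bin itself, 4.52 and 4.54 RPM in the bins on either side and 1.87 and 1.70 RPM at a distance of 5 kb. GFI1-WT held 1.41 RPM in the bin, 1.64 and 1.63 RPM beside it and 1.17 and 1.05 RPM at 5 kb. The high GFI1-KD and low GFI1-WT values at the centre follow from the rule, and other gained bins are among the neighbours averaged. Neighbouring bins with enough reads that were not gained themselves had a median ratio of 2.11 on one side (491 bins) and 2.18 on the other (482 bins). At 5 kb the medians were 1.60 and 1.55. Leaving out gained neighbours keeps these ratios under 3 by construction.

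**Figure D2:**
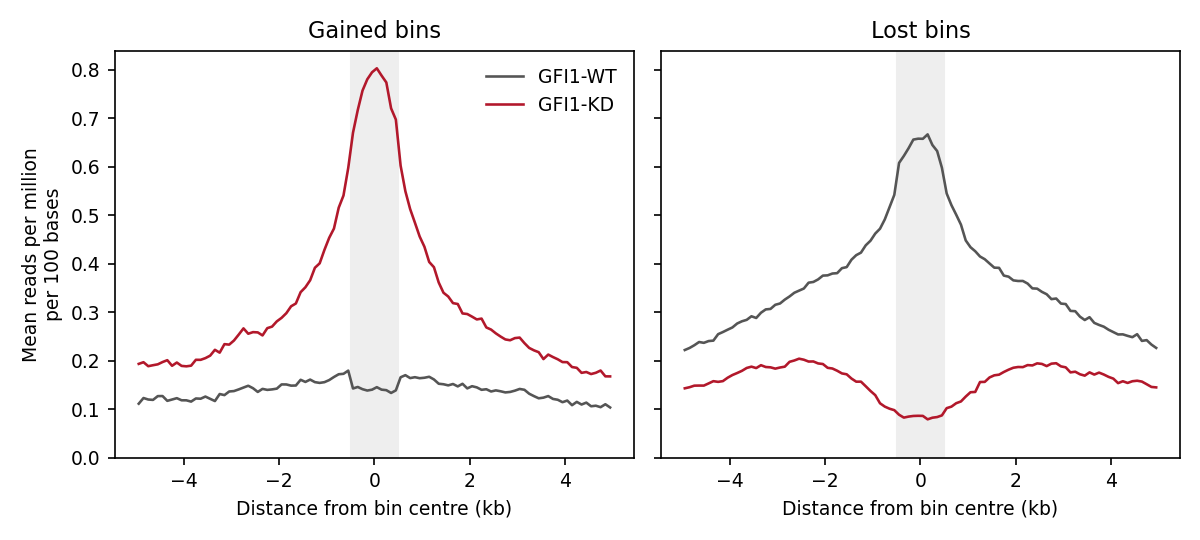
Mean H3K4me2 in RPM per 100 bases (y axis) against the distance from the bin centre in kb (x axis), for the gained bins (left) and the lost bins (right), GFI1-WT in grey and GFI1-KD in red; the shaded strip is the 1-kb bin that the rule read. The rule fixed the high GFI1-KD and low GFI1-WT values inside the strip of the left panel.

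Most gained bins stood alone. The 1559 bins formed 1358 stretches, of which 1202 were single bins and 156 were runs of touching bins. Runs held 22.9% of the gained bins, against 48.6% of the lost bins, while 82.0% of all bins with 40 or more reads touched another such bin. Another gained bin lay within 10 kb of 35.1%. The longest runs had 6 bins. One lay in Clec2g, a C-type lectin gene (chr6:128968001-128974000), with 99 GFI1-WT and 674 GFI1-KD reads. The other lay in Cd86, the costimulatory ligand of antigen-presenting cells (chr16:36631001-36637000), with 45 and 367 reads. Runs of 5 bins lay in Rassf4, a Ras-association domain gene (66 against 422 reads), and Nrg1, the growth factor neuregulin 1 (32 against 332 reads). Runs of 4 lay in Irf8, Gpr35, Nrg1 and Selp and near Hmgb2.

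The gained bins lay mostly away from listed gene starts. Of 47042 autosomal genes, 25748 had a listed start, and Nrg1, Cd86 and Smyd3 were among those without one. A bin at an unlisted start counts as away from a start, in every set of bins compared. Listed starts were available for 18 of the 19 autosomes, which held 1519 of the 1559 bins. Of these, 176 (11.6%, exact binomial interval 10.0 to 13.3%) lay within 1 kb of an annotated start, against 34.1% of all bins with 40 or more reads and 11.3% of lost bins. Gene bodies away from a start held 58.7%, against 48.5% of all and 71.8% of lost bins. Regions between genes held 29.7% (interval 27.4 to 32.1%), beside 17.4% of all and 16.9% of lost bins (15.5 to 18.3%). The share at starts was thus low in gained and lost bins alike, and the share between genes was high in the gained bins. Touching bins are not independent, so these intervals are too narrow. The median distance to a start was 13.7 kb for gained bins, 9.27 kb for lost bins and 4.45 kb for all.

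**Figure D3:**
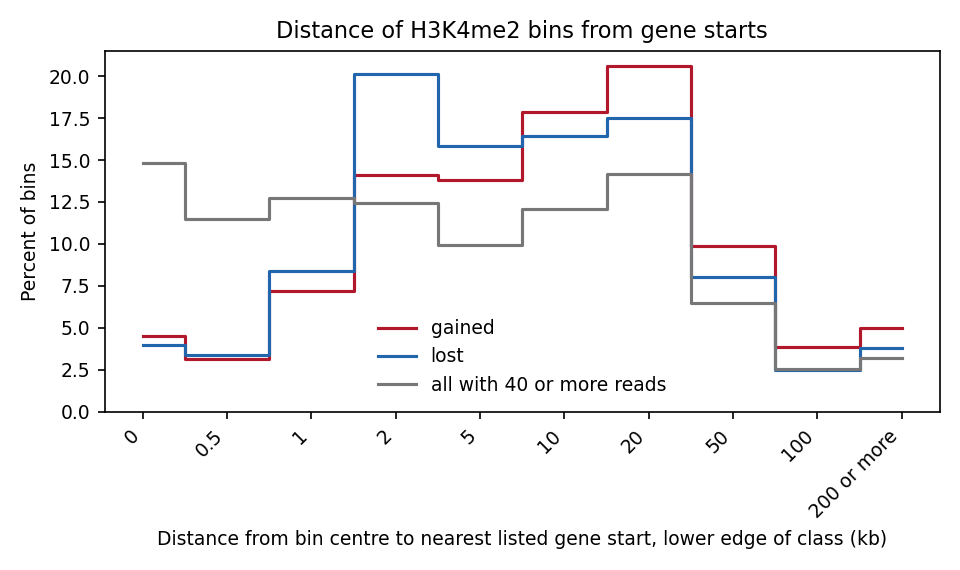
Percent of bins (y axis) in classes of distance from the bin centre to the nearest listed gene start (x axis, lower edge of each class in kb), for gained bins (red), lost bins (blue) and all bins with 40 or more reads (grey). Below 1 kb the shares of gained and lost bins are lower than that of all bins, and the class from 20 to 50 kb holds the largest share of gained bins. The classes differ in width, so their heights are not densities.

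The share of bins that were gained ran from 1.46% on chromosome 11 to 2.55% on chromosome 13. The share of reads with a mapping quality under 10 was 0.284% and 0.246% in the gained bins and 0.278% and 0.269% in all bins, for GFI1-WT and GFI1-KD. GFI1-KD reads of the gained bins were 49.9% on the plus strand.

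The Gfi1 locus itself held gained bins. Gfi1 lies at chr5:107716655-107725805 on the minus strand. Bins at its 3′ end had 11 against 90 and 14 against 107 reads, and 2 bins downstream of it had 10 against 52 and 15 against 94. Within 1 kb of its start, reads were 468 in GFI1-WT and 682 in GFI1-KD. Of 19 windows of 500 bases over the gene, 6 held no GFI1-KD read and 83 GFI1-WT reads together. The empty stretches were chr5:107719001-107720000 with 11 GFI1-WT reads, chr5:107720501-107721000 with 10 and chr5:107721501-107723000 with 62. In each, 0 GFI1-KD reads were given a fixed allowance of 3 reads, or 0.315 RPM, in place of an exact interval. No window had the reverse pattern. The empty stretches thus lay between a start and a 3′ end that both carried the mark in GFI1-KD, and the structure of the GFI1-KD allele was not tested.

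Gfi1b, the paralog of Gfi1, had 3 lost bins and no gained bin, with 184 against 206 reads at its start. Kdm1a had neither, with 159 against 165 reads at its start. Spi1 had neither over 19 bins with enough reads.

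A gene was called linked where its body, with 10 kb added on each side, overlapped a gained bin. This held for 1527 genes, 5.88% of the 25955 with a bin of 40 or more reads in reach, and 9.73% were linked to a lost bin. Protein-coding genes made up 937 of the 1527, or 6.03% of the 15550 in reach (10.9% for lost bins), and 433 were lncRNA genes. Linked genes can share a bin, as the Ugt1a glucuronosyltransferases on chromosome 1 did, which had the same 5 bins.

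Nrg1 had the most gained bins, 12 of its 18 bins with enough reads, and no lost bin. Their reads ran from 3 against 68 to 38 against 162. Clec2g had 8 of 12, and Gpr35, which encodes an orphan G protein-coupled receptor, 7 of 11. Rassf4 had 7 of 27 and Foxp1, a forkhead transcription factor, 7 of 65. Cd86 and Smyd3, a SET domain methyltransferase, had 6 of 12 and 6 of 20. Cgnl1, a cell junction gene, had 5 of 7. Large genes reach more bins, so these counts are given beside the number of bins that could be gained.

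Monocyte and macrophage genes were the list most often linked, 11 of the 24 in reach (45.8%), beside 5.88% of all genes. They included Adgre1, Ccr2, Csf1r, Cx3cr1, F13a1, Fcgr1, Klf4, Ms4a6c, Ms4a6d and Msr1, and only Ctss in the list was linked to a lost bin. Within 1 kb of the start, 17 of 18 members with a listed start had more RPM in GFI1-KD, against 41.0% of 16457 protein-coding genes. Their summed level there was 161 RPM in GFI1-WT and 325 RPM in GFI1-KD. Where a gained bin lies at a start, here and in the lists below, the start signal includes reads by which the rule chose that bin.

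Csf1r, the receptor for M-CSF, held a gained bin of 33 against 147 reads inside the gene, at chr18:61107001-61108000. F13a1, the A subunit of coagulation factor XIII, held 3 touching bins of 22 against 144, 35 against 144 and 25 against 129 reads, 0.71 to 2.71 kb into the gene. Ms4a6d, a membrane protein of monocytes, held a bin of 3 against 67 reads. Msr1, a scavenger receptor, held one of 1 against 43. Klf4, a transcription factor of monocytes, held one of 23 against 148, while its start had 240 and 286 reads. The GFI1-WT count was the lower in each of these bins, as the rule requires.

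Neutrophil and granule genes were linked in 5 of 21 (23.8%), beside 5.88% of all genes, with none linked to a lost bin, beside 9.73%. Mmp8 held 3 touching bins of 36 against 152, 18 against 144 and 15 against 93 reads, the first of which contains the promoter printed above. S100a8 held a bin of 13 against 124 reads over its start. Elane held a bin of 36 against 154 reads over its start, and Prtn3, the neighbouring proteinase gene, was linked through the same bin. Lcn2, the iron-carrier-binding lipocalin, was the fifth. At the starts of this list, 14 of 19 genes had more RPM in GFI1-KD, against 41.0% of protein-coding genes, and the summed level was 144 and 310 RPM.

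Toll-like and innate receptors were linked in 6 of 19 (31.6%, beside 5.88% of all genes), namely Tlr2, Tlr4, Tlr9, Trem1, Trem2 and Trem3. All 16 listed starts in this list had more RPM in GFI1-KD, against 41.0% of protein-coding genes. Tlr9 held bins of 39 against 148 and 25 against 130 reads, and Trem2, a lipid receptor of macrophages, held one of 33 against 136. Trem1 and Trem3, activating receptors of myeloid cells, were linked through the same bin of 16 against 86 reads, chr17:48247001-48248000, which overlaps Trem3 and lies within 10 kb of Trem1.

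PU.1 targets were linked in 7 of 24 (29.2%), several of which are in the lists above. Their start signal was 193 RPM in GFI1-WT and 367 RPM in GFI1-KD, higher in 15 of 17 genes, against 41.0% of protein-coding genes. GFI1 and GFI1B targets were linked in 4 of 22 (18.2%): Csf1r, Gfi1, Id1 and Irf8. Beside both lists, 5.88% of all genes in reach were linked. Irf8 held 4 touching bins with 48 against 191, 35 against 189, 59 against 215 and 31 against 162 reads, all downstream of the first base of the gene. Reads within 1 kb of its starts numbered 244 in GFI1-WT and 700 in GFI1-KD, and these include reads of its gained bins, which the rule chose. Id1, an inhibitor of basic helix-loop-helix factors, was linked through a bin of 38 against 147 reads.

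Stem and progenitor genes were linked to gained and to lost bins equally often, 4 of 22 each. Gained bins lay at Cd48, Myb, Myc and Runx1, and lost bins at Kit, Lmo2, Runx1 and Tal1. The start signal of this list was 479 RPM in GFI1-WT and 572 RPM in GFI1-KD, higher in 14 of 17 genes, against 41.0% of protein-coding genes. The 15 erythroid genes had no gained bin, and 14 of them were linked to a lost one, beside 5.88% and 9.73% of all genes. Their start signal was 173 RPM in GFI1-WT and 114 RPM in GFI1-KD. The 11 megakaryocyte genes had no gained bin either, 3 had a lost one, and their start signal was 64.4 and 38.1 RPM.

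None of the 15 B cell, 13 T and NK cell, 5 eosinophil or 9 stromal genes in reach was linked to a gained bin. Only 5.88% of all genes in reach were linked, so no link in lists this small says little about these cell types. Mitf was the 1 linked gene of 6 in reach in the mast cell and basophil list. Tcf4 was the 1 of 18 in the MHC class II and dendritic cell list, and Cd38 the 1 of 14 in the retinoic acid response list. Interferon response genes were linked in 2 of 18 (Ifi204 and Ifi205) and the LSD1 and CoREST complex in 2 of 15 (Gfi1 and Gse1). Lost bins were linked to 2 of the 18 and to 3 of the 15, the latter being Gfi1b, Gse1 and Rcor1. Gse1 had 1 gained and 10 lost bins of 89 with enough reads. Monocyte, granule and erythroid genes, among others, moved with genotype in these lists, and the part that cell composition has in the gained bins was not tested.

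**Figure D4:**
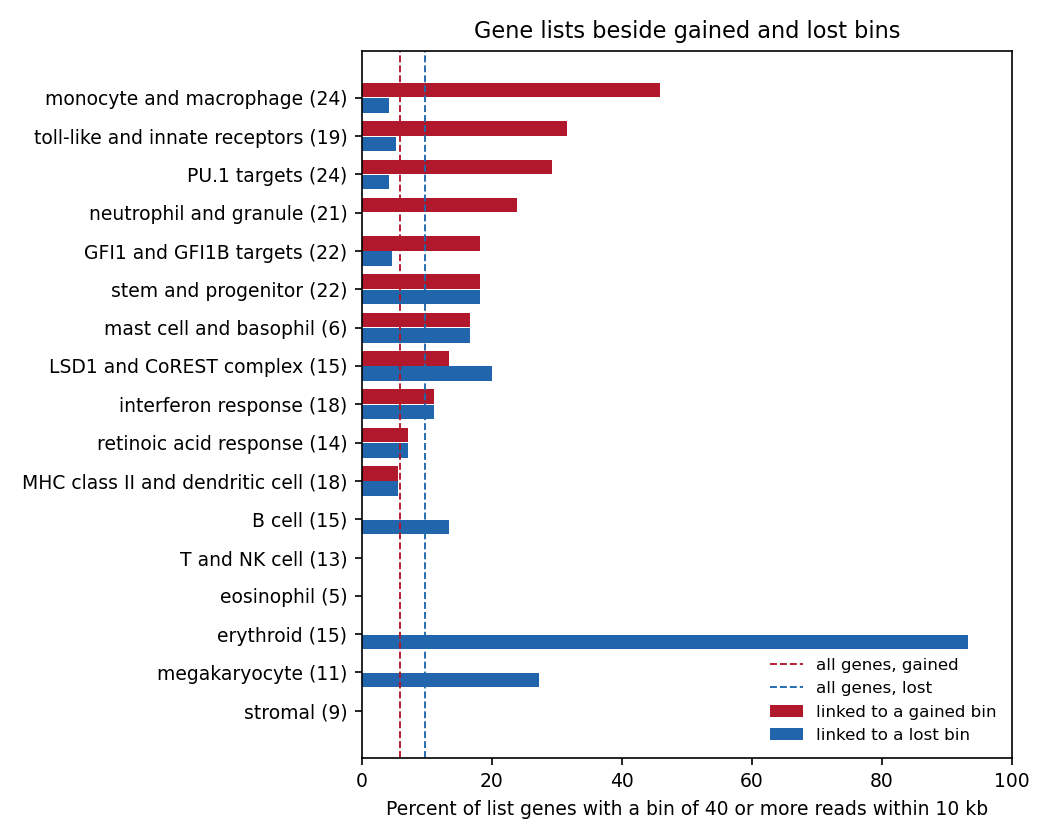
Percent of the genes of each list in reach (x axis; number in parentheses) that were linked to a gained bin (red bars) or a lost bin (blue bars), with dashed lines at the share of all annotated genes. Monocyte and macrophage genes reach 45.8% for gained bins, and erythroid genes 93.3% for lost bins with none gained.

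The RNA libraries played no part in choosing the bins, and they came from transformed cells in culture rather than marrow. In LSD1 knockouts, Kdm1a fell from 138, 140 and 139 CPM (counts scaled to 1000000 per library) in H9M control libraries to 0.937, 0.998 and 0.952 CPM. In MN1 it fell from 187, 193 and 192 to 1.41, 1.28 and 1.58 CPM. Gfi1 RNA rose in both, from 216 to 233 CPM in H9M controls to 295 to 302 CPM in knockouts, and in MN1 from 107 to 120 CPM to 285 to 297 CPM. Gfi1b, with 3 lost bins and no gained bin, rose from a mean of 0.138 to 119 CPM in H9M and from 69.8 to 475 CPM in MN1. Spi1 rose from a mean of 162 to 181 CPM in H9M and from 80.1 to 91.1 CPM in MN1. A total of 14663 genes were tested with edgeR's quasi-likelihood test, and a gene was called at a Benjamini-Hochberg adjusted p under 0.05.

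Genes linked to gained bins were mostly higher after LSD1 loss. Of the 1527 linked genes, 796 passed the filter on low counts, and in H9M 460 of them (57.8%) were called higher, where 26.1% of all genes tested were. Lower calls fell on 125 (15.7%), where 25.4% of all genes were. The median log2 fold change was 0.34. In MN1, 412 (51.8%) were higher and 143 (18.0%) lower, against 28.7% and 26.3% of all genes, with a median log2 fold change of 0.31.

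This split was not seen at genes with H3K4me2 in reach as such. Genes with any bin of 40 or more reads in reach were 28.1% higher and 27.5% lower in H9M, and genes linked to lost bins 29.5% and 29.0%. In MN1, genes linked to lost bins were 31.9% higher and 30.9% lower.

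The share called higher was larger at genes linked to more gained bins. Of 219 tested genes linked to 2 or more, 153 (69.9%) were higher and 18 lower in H9M. Of 83 linked to 3 or more, 63 (75.9%) were higher and 7 lower. In MN1 the higher shares were 66.2% and 69.9%. Of 30 tested genes with a start inside a gained bin, 25 (83.3%) were higher and none lower in H9M, with a median log2 fold change of 2.04. In MN1, 19 of the 30 were higher and 1 lower. Changes of 2-fold or more upwards made up 26.0% of the linked genes in H9M (8.68% of all genes) and 22.6% in MN1 (9.88%). Rises of 2-fold or more in both models were found for 120 of the 796 (15.1%), against 4.77% of all genes. Genes called higher in both models were 316 of the 796 (39.7%), against 17.0% of all genes, and genes lower in both were 70 (8.79%), against 16.0%. Falls of 2-fold or more were rare everywhere, 1.51% of linked and 1.64% of all genes in H9M, and 1.76% and 1.43% in MN1. A gene with almost no control counts can pass the filter through other libraries and can then hardly be called lower. Trem2, with 3 counts over the H9M controls, is such a gene. The sets were not matched for control level, and the part this has in the shares was not tested. Neighbouring genes share bins, so the linked genes are not independent of each other.

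**Figure D5:**
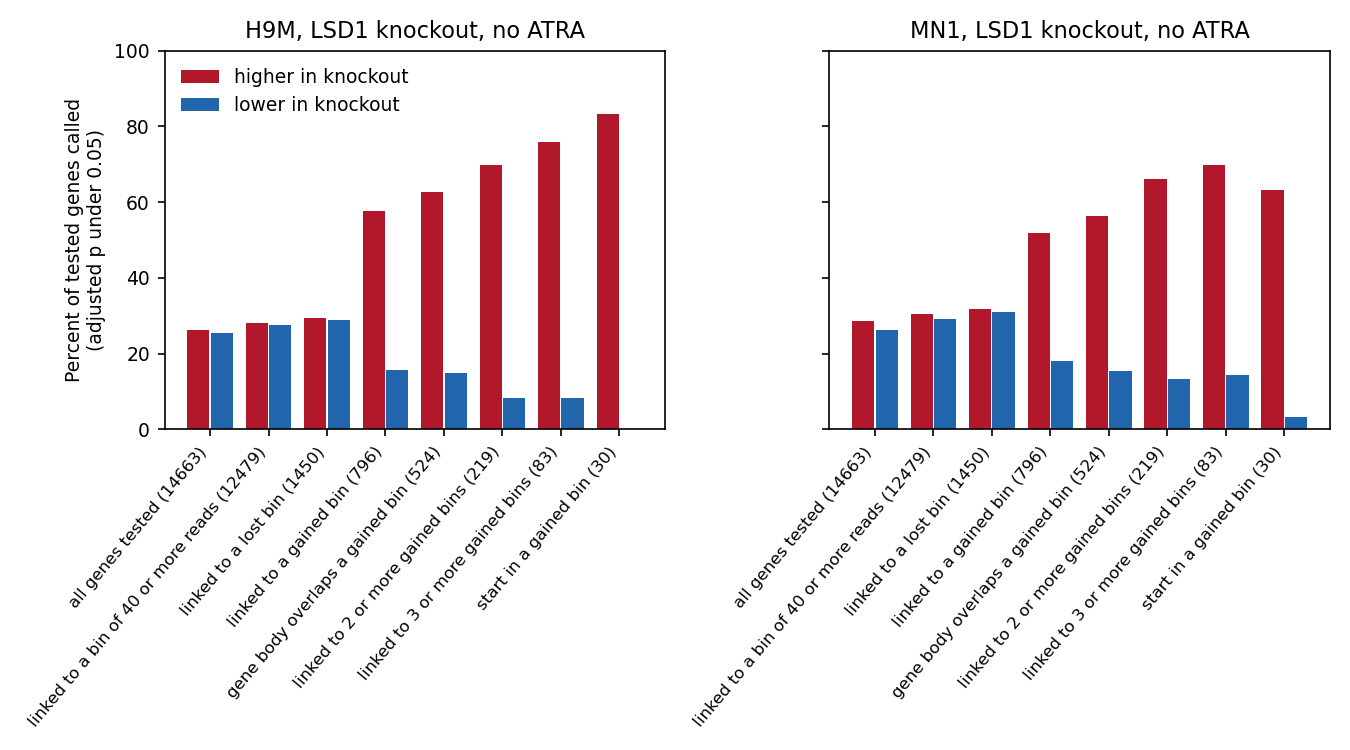
Percent of tested genes (y axis) called higher (red) or lower (blue) in LSD1 knockout against control without ATRA, in H9M (left) and MN1 (right), for sets of genes by their link to H3K4me2 bins (number tested in parentheses). The red bars for genes linked to gained bins stand at 57.8% and 51.8%, above those of all genes at 26.1% and 28.7%.

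All 11 linked monocyte and macrophage genes were called higher in H9M, and in MN1 8 were higher and 1 lower. Of all 796 linked genes tested, 57.8% were higher in H9M and 51.8% in MN1. Csf1r had 1.10 to 1.33 CPM in H9M controls and 45.6, 47.8 and 45.6 CPM in knockouts, a log2 fold change of 5.27 (SE 0.0966, edgeR adjusted p = 6.91e-28). In MN1 it was at 0.0646 to 0.189 CPM in controls and 0.419 to 0.463 CPM in knockouts, a smaller change by edgeR's test of the difference (-3.62 on the log2 scale, adjusted p = 1.91e-06). F13a1 rose in H9M, from 155, 145 and 148 CPM to 497, 500 and 506, and fell in MN1, from 205, 211 and 211 CPM to 115, 116 and 111. Adgre1, which encodes the macrophage antigen F4/80, rose from a mean of 12.2 to 103 CPM in H9M and from 52.7 to 328 CPM in MN1. The libraries of the groups did not overlap for Csf1r or F13a1.

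Of the 5 linked neutrophil and granule genes, 3 were higher in H9M, near the 57.8% of all linked genes. In MN1 5 were higher, beside 51.8% of all linked genes. Mmp8 had 1.62, 1.74 and 1.77 CPM in H9M controls and 1419, 1703 and 1520 CPM in knockouts, a log2 fold change of 9.83 (SE 0.0923, edgeR adjusted p = 7.02e-35). In MN1 it rose from 11.9, 11.9 and 13.1 CPM to 418, 458 and 437. S100a8 rose from a mean of 18.4 to 47.7 CPM in H9M and from 0.724 to 4.19 CPM in MN1. Elane had a mean of 2447 CPM in H9M controls and 2296 CPM in knockouts, a log2 difference of -0.08 that was not called (edgeR adjusted p = 0.195), although it was called lower without the filter on low counts (adjusted p = 0.0435). In MN1 Elane rose from a mean of 49.6 to 78.4 CPM. The effect on Elane differed between the models (0.73 on the log2 scale, MN1 minus H9M, edgeR adjusted p = 4.61e-09).

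Irf8 rose in both models and more in H9M. Its controls were at 7.75, 8.77 and 7.65 CPM and its knockouts at 395, 390 and 401 CPM in H9M, a log2 fold change of 5.63 (SE 0.0551, edgeR adjusted p = 9.47e-35). In MN1 the values were 8.94, 9.11 and 8.81 against 24.1, 25.2 and 24.6 CPM, a log2 fold change of 1.46, and the effects differed (-4.17, MN1 minus H9M, edgeR adjusted p = 2.74e-25). All 4 linked GFI1 and GFI1B targets were higher in MN1 and 3 in H9M. Of 7 linked PU.1 targets, 5 were higher in each model, and Tlr4 was lower in H9M. Tlr9 rose from a mean of 0.0614 to 3.32 CPM in H9M and from 0.242 to 0.702 CPM in MN1. Of the 6 linked innate receptors, 6 were higher in MN1, while in H9M 4 were higher and Tlr4 and Trem3 lower. Beside these counts, 57.8% of all 796 linked genes tested were higher in H9M and 51.8% in MN1. Counts this small describe these genes only.

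The genes that overlap the bins with the most GFI1-KD signal, other than Irf8, are given by their means. Hs3st3b1 rose from 7.65 to 17.2 CPM in H9M and from 3.02 to 15.2 CPM in MN1. Pou2f2 rose from 6.27 to 31.4 CPM in H9M and from 0.852 to 1.27 CPM in MN1. Tifab rose from 214 to 599 CPM and from 3.40 to 6.16 CPM. Pld4 rose from 149 to 300 CPM and from 42.8 to 95.1 CPM. Csf2rb rose from 561 to 948 CPM and from 342 to 813 CPM, though it has a near-identical neighbour, Csf2rb2, and may share reads with it. Rassf4 is given with the genes of many bins, and Efna1 was not among the genes tested. Tln2, with the highest ratio of all bins, rose from 0.998 to 7.06 CPM in H9M and from 6.85 to 9.50 CPM in MN1. Nupr1, with 9 against 128 reads near its start, was not called in H9M (16.2 and 17.6 CPM) and fell in MN1 (18.5 and 15.5 CPM).

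Among the genes with the most gained bins, Nrg1 rose in H9M from 18.4, 17.1 and 15.7 CPM to 44.8, 49.7 and 43.9 and had no count in MN1. Rassf4 rose in both, from a mean of 47.3 to 109.9 CPM in H9M and from 14.3 to 24.8 CPM in MN1. Gpr35 rose in both at a low level, to means of 3.33 and 0.334 CPM. Cd86 was at 0 to 0.071 CPM in H9M controls, 3 counts in all, and at 1.96 to 2.83 CPM in knockouts. Smyd3 and Cgnl1 fell in both models, and Foxp1 rose in H9M and fell in MN1. The fall of Smyd3 in MN1 was not called without MN1 control replicate 2 (edgeR adjusted p = 0.0748). The rise of Foxp1 in H9M was not called without H9M control replicate 3 (adjusted p = 0.0516) or knockout replicate 2 (adjusted p = 0.127), both with edgeR. Gained bins inside a gene were therefore not always beside a gene that rose.

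The largest rises common to both models among linked genes, beside Mmp8, were those of Trem2, Tarm1, Lgmn, Tmem268 and Stab1. Tmem268 had 0.193, 0.248 and 0.275 CPM in H9M controls and 82.6, 88.3 and 82.5 CPM in knockouts. Stab1, a scavenger receptor, rose more in MN1, from a mean of 1.08 to 480.2 CPM, than in H9M, from a mean of 1.29 to 10.9 CPM (difference 5.72 on the log2 scale, edgeR adjusted p = 1.28e-16). Trem2 was at 19.9 to 22.6 CPM in H9M knockouts with 3 counts over the 3 controls, and in MN1 at 1.72 to 2.48 CPM with no control count. Fn1, which encodes fibronectin, rose from a mean of 0.19 to 9.53 CPM in H9M and from 0.909 to 11.9 CPM in MN1. Dock4, Rbm47 and Ms4a6c rose in both models as well.

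The largest falls common to both models were smaller in size. Acss1, a mitochondrial acetyl-CoA synthetase, fell from a mean of 40.7 to 19.0 CPM in H9M and from 5.07 to 1.72 CPM in MN1. Cdh23, a cadherin, fell from 70.5 to 47.3 CPM and from 7.80 to 1.34 CPM. Creb5, Naaa and Zbtb16 fell in both. Acss1 was linked to 4 lost bins beside 1 gained bin, and Cdh23 to 1 of each. Myb and Myc, transcription factors of progenitors that each had a gained bin, fell by 0.50 and 0.23 on the log2 scale in H9M and by 0.26 and 0.21 in MN1. Near-identical family members such as Ms4a6c and Ms4a6d, or Ifi204 and Ifi205, may share reads, and their RNA values are uncertain to that extent.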

How the data were processed

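Each line of the deposited ChIP tables is 1 aligned read, and its score is the mapping quality, which served only as a filter of 10 or more; per the submitters' processing notes they were made with CASAVA 1.8.2, BWA and bedtools 2.27.0 on GRCm38 (mm10), and duplicate removal was not given in the sources used here. Read 5′ ends were counted in fixed bins of 1000 bases with Python 3.11.15 and pandas 2.3.3. With 1 library per genotype there is no test of the bins. The deposited RNA table holds whole-number counts per gene; the authors aligned with STAR 2.5.3 per the submitters' processing notes, and neither the counting tool nor the strand is known from the sources used here, which leaves overlapping and antisense genes uncertain. Totals were 22402558 to 32674685 counts per library. Of the IDs, 48349 matched a symbol and 446 did not. edgeR 4.0.16 fitted 8 groups of 3 libraries after filterByExpr and TMM, with glmQLFTest and Benjamini-Hochberg adjustment over 14663 genes, two-sided. On simulated data the fit was tested beforehand.

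Gene positions and promoters come from RefSeq GRCm38.p6. Chromosome 18 had no promoter entry, so starts cover 18 autosomes, and not every gene there had a listed start. Named were the bins of highest ratio and GFI1-KD signal, the longest runs, genes with the most bins, linked members of 17 lists (up to 4 with values), Gfi1, Gfi1b, Kdm1a, Spi1, Irf8, and linked genes with the largest changes common to both models at 5 CPM or more. Linked list members and RNA values of genes at named bins are given in addition, after their values were seen. The bins, lists and genes were chosen with earlier results of these data known. Alternatives tried were mapping quality, bin offset, depth, added RPM, scaling, reach to genes, and for RNA another scaling, no filter, DESeq2 1.42.0, a replicate block and leaving out each library. Bins of the X chromosome were outside the rule. Replicate numbers did not pair the RNA libraries.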

Additional observations from a re-analysis of the deposited data

Results flagged for a closer look

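The LSD1 knockout effect had opposite calls in the 2 models for 4 named genes beside gained bins, and edgeR's test of the difference passed for each. For F13a1 the effect in MN1 minus that in H9M was -2.64 on the log2 scale (adjusted p = 1.84e-25), with a rise in H9M and a fall in MN1 in all libraries. For Trem3, which fell in H9M from a mean of 33.7 to 14.8 CPM and rose in MN1 from 0.119 to 0.621 CPM, it was 3.45 (adjusted p = 2.05e-06). For Gse1, a component of LSD1 complexes with 1 gained and 10 lost bins, it was 0.48 (adjusted p = 2.72e-06). For Foxp1 it was -0.43 (adjusted p = 7.55e-07). Opposite calls were found for 59 of the 796 linked genes tested (7.41%) and 531 of all 14663 (3.62%). Over all 51 named genes tested, the effect differed between the models for 36. The same share over all genes was not counted, and some named genes were chosen for large RNA changes, so this describes the named genes only.

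On the X chromosome, outside the autosomal rule, 26 of 1707 bins with 40 or more reads met the gained thresholds (1.52%) and 17 the lost ones (0.996%).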

How the results depend on the processing

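The number of gained bins was 1551 at a mapping quality of 30, 1597 with bins shifted by 500 bases, and 1999 at 20 or more reads, with 25.3% in runs. At 80 or more reads there were 686 bins, 77.0% of them overlapping a gene and 17.1% at a start, and 755 linked genes. With 0.5 RPM added there were 3075 bins, 9.37% at a start, and 2756 linked genes. Scaled to a median ratio of 1 (GFI1-KD multiplied by 0.899) there were 973 bins, 18.7% in runs and 13.4% at a start, and 1013 linked genes. Scaled to the reads of sparse bins (GFI1-KD multiplied by 1.28) there were 4476 bins, 29.4% in runs, and 3771 linked genes. The cause of these shifts was not tested. Keeping 1 read per position and strand could change nothing, since all positions were already distinct. Linked genes numbered 835 for the gene body alone and 3974 with 50 kb on each side. With the gene body alone, 78 linked genes were lower in H9M and 81 in MN1, from fewer genes tested. Without each replicate in turn, higher calls were 439 to 449 in H9M and 385 to 401 in MN1, and lower calls 110 to 121 and 123 to 136. With DESeq2, higher calls were 467 and 410. Replicate numbers do not pair these libraries: correlations of same-numbered libraries were at most 0.020, and with the replicate block higher calls were 462 in H9M and 408 in MN1, lower calls 125 and 145. Of 1020 log2 values of named genes under these alternatives, 1007 stayed on the same side of the threshold, 6 lost the call, 7 gained one and none reversed. The rises of Fcgr1 (adjusted p = 0.103) and Mitf (adjusted p = 0.0599) in MN1 were lost in edgeR without MN1 knockout replicate 1, and that of Mitf also without knockout replicate 2 (adjusted p = 0.0719). Ratios of named bins were recomputed as an alternative added after seeing the data, and 66 of 80 moved by less than their counting interval. Under both scalings, start signal stayed higher in GFI1-KD for 10 of the 17 lists and lower for 2, erythroid and megakaryocyte genes, and the direction of the other 5 depended on the scaling.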
